A study of Mus musculus with 10 samples.

Results

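The 14-3-3 proteins are a family of small adaptor proteins, and the genes described here are 6 of its members, Ywhab, Ywhae, Ywhag, Ywhah, Ywhaq and Ywhaz. They were chosen by their gene symbols from the 43629 genes of the count table, and Ywhab was singled out for a small rise that the Dp1Tyb samples shared, so its genotype difference is given below as a description, and nothing is read from its test. All 6 passed the filter on low counts that left 17237 genes for testing. RNA sequencing was carried out on the whole hippocampus of 5 wild-type (WT) and 5 Dp1Tyb male littermate mice. The labels give the strain as C57BL/6J.129P2 and the age as 18 weeks, while the methods of the study describe backcrossing to C57BL/6JNimr and give a slightly higher age. Dp1Tyb mice carry Dp(16Lipi-Zbtb21)1TybEmcf, an engineered duplication of mouse chromosome 16 from Lipi to Zbtb21, in every cell of the body, and they serve as a model of Down syndrome. Their duplicated genes are present in 3 copies, and none of the 6 members lies in that region.

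A 14-3-3 protein works as a dimer that docks onto client proteins at phosphorylated serine or threonine residues. Docking can hold a client in the cytoplasm, keep an enzyme on or off, or shield a phosphate from removal. Brain is known as a rich source of these proteins, and each gene codes for an isoform with a Greek name: beta (Ywhab), epsilon (Ywhae), gamma (Ywhag), eta (Ywhah), theta (Ywhaq) and zeta (Ywhaz). A further mammalian gene, Sfn, codes for the sigma isoform, which is known from epithelial cells.

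The coding sequences of the members are alike enough to matter for how short reads are assigned, so the stretch where they are most alike is shown here. It is a window of 60 coding bases near the start of each open reading frame, taken from the GENCODE M21 transcripts of GRCm38 and read 5′ to 3′ on the strand of the gene. Capitals mark bases that differ from Ywhab, and 38 of the 60 bases were identical in all 6 members.
Ywhab: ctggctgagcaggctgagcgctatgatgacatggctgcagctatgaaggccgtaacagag
Ywhae: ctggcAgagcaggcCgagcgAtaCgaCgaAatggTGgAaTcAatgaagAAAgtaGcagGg
Ywhag: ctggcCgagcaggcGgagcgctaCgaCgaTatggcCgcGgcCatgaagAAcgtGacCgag
Ywhah: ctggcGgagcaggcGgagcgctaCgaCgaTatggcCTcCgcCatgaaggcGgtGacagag
Ywhaq: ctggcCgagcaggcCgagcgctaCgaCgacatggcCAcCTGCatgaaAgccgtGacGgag
Ywhaz: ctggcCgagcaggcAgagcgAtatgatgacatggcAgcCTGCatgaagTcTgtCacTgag

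In this window Ywhae differed from Ywhab at 16 bases and Ywhah at 11, with the other members between them. The window lies in a single exon in Ywhab (chr2:164011644-164011703, plus strand, exon 2 of 6), Ywhaq (chr12:21416999-21417058, minus strand, exon 2 of 6) and Ywhaz (chr15:36790885-36790944, minus strand, exon 3 of 7). In Ywhae, Ywhag and Ywhah it is split over exons 1 and 2. Over the whole coding sequence, Ywhab shared 75.1% of aligned bases with Ywhaz, 73.6% with Ywhaq, 71.2% with Ywhag, 69.1% with Ywhah and 63.3% with Ywhae. The closest pair of all was Ywhag and Ywhah, at 78.9%, and the most distant was Ywhae and Ywhah, at 61.4%.

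Reads of 75 bases tell the members apart: the main coding transcripts of Ywhab, Ywhae and Ywhag held no run of 75 bases that occurs in another annotated gene. Processed pseudogenes, which are copies of spliced messages put back into the genome, share sequence with the other members. Of all 75-base runs, 12.1% in Ywhah, 18.5% in Ywhaz and 32.5% in Ywhaq also occurred in another annotated gene, and since the authors discarded reads that aligned to several places, the levels of these 3 genes may be too low. The main sharers were Gm12428 for Ywhah, Gm4202 for Ywhaz, and Gm2423 and Ywhaq-ps3 for Ywhaq, whose transcript also shared runs with the coding gene Cdk5rap2. Gm4202 had 212 to 731 counts per sample (log2 fold change 0.16 ± 0.12 SE, adjusted p = 0.574 in edgeR), against at least 14619 for Ywhaz itself. The counts reached 47 for Gm2423, 7 for Gm12428, 6 for the named copy Ywhaq-ps2 and 2 for Ywhaq-ps3.

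Total counts per sample ranged from 18227684 to 43692270, and the 6 members together took between 0.415% and 0.463% of the scaled counts. The smallest count of any member was 5226, for Ywhaq in WT replicate 3. Levels are given as CPM, counts per 1000000 after scaling of the library sizes by TMM, a method that sets the bulk of genes equal between samples. Across WT samples the coefficient of variation was between 1.17% (Ywhag) and 3.58% (Ywhaq). In Dp1Tyb it was between 2.39% (Ywhab) and 8.21% (Ywhaq). Choroid plexus, the tissue that makes cerebrospinal fluid, entered the samples unevenly: its 9 markers summed to between 428 and 5450 CPM in WT and between 36.7 and 3867 CPM in Dp1Tyb, and WT replicate 2 and Dp1Tyb replicates 1 and 4 were the lowest. All 7 hippocampal neuron markers were present in every sample, with sums of 1012 to 1170 CPM in WT and 1041 to 1126 CPM in Dp1Tyb.

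Levels of different genes can be compared only per length, as RPKM, here the CPM value per 1000 bases of all annotated exons. By this length, Ywhab, Ywhae, Ywhag, Ywhah and Ywhaz had similar levels, and the measured level of Ywhaq was lower. Per length of the longest coding transcript, those 5 were further apart, from 209 RPKM for Ywhab to 468 for Ywhah, beside 131 for Ywhaq. Reads lost to copies may lower the values of Ywhah, Ywhaz and Ywhaq, and no correction was made for them. Over all 10 samples the mean RPKM was 244 ± 8.96 (SD) for Ywhae, 223 ± 13.1 for Ywhah, 208 ± 10.3 for Ywhaz, 207 ± 9.98 for Ywhag, 187 ± 12.3 for Ywhab and 94.1 ± 6.02 for Ywhaq. These are high levels: 0.684% of the 17104 tested genes with a length lay above Ywhab, and 1.82% lay above Ywhaq. Sfn stood far below, at 1.07 ± 0.246 RPKM, with 31 to 59 counts per sample.

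The order of neighbours was tested within samples, by a two-sided exact sign-flip permutation test over the 10 samples with adjustment over the 5 neighbouring pairs. Ywhae exceeded Ywhah in 10 of 10 samples (log2 ratio 0.14 ± 0.055 SD, adjusted p = 0.00326, exact test), and Ywhah exceeded Ywhaz in 9 of 10 (0.098 ± 0.049 SD, adjusted p = 0.00488, exact test). Ywhaz and Ywhag did not differ beyond their spread, with a log2 ratio of 0.008 ± 0.085 SD and Ywhaz higher in 6 of 10 samples (adjusted p = 0.758, exact test). Ywhag exceeded Ywhab in 10 of 10 samples by 0.15 ± 0.061 SD, and Ywhab exceeded Ywhaq in 10 of 10 by 0.99 ± 0.10 SD (adjusted p = 0.00326 for each, exact test). A loss of shared reads would enter all 10 samples alike, so the exact test does not measure it. Its part in the order was not tested. The place of Ywhah and Ywhag depended on the length that was used. Per length of the longest coding transcript, the order became Ywhah (468 RPKM), Ywhag (323), Ywhae (299), Ywhaz (260), Ywhab (209) and Ywhaq (131), so only the last places of Ywhab and Ywhaq were the same under both lengths.

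**Figure D1:**
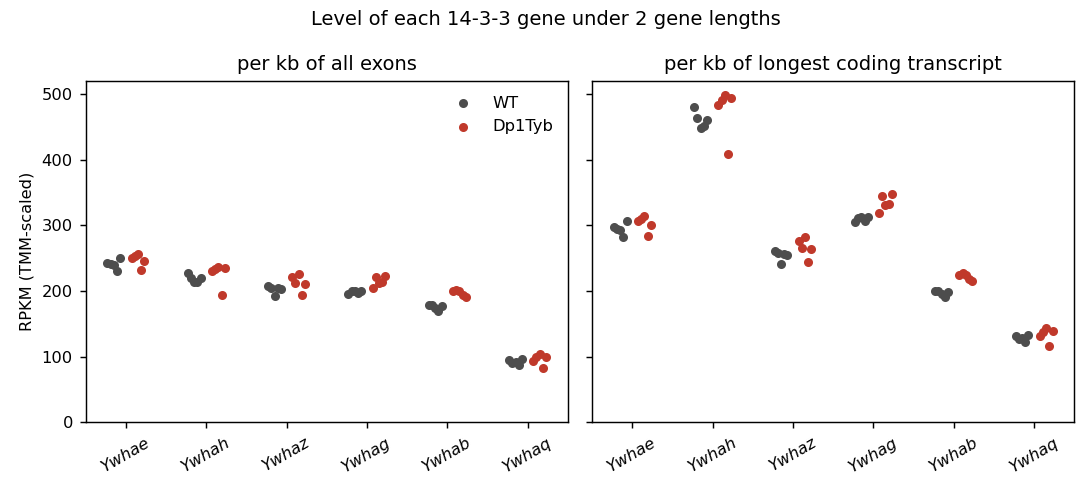
RPKM of each 14-3-3 gene on a linear axis, 1 point per sample (grey, WT; red, Dp1Tyb), per 1000 bases of all exons (left) or of the longest coding transcript (right). Ywhaq is lowest in both panels, while Ywhah moves from 223 to 468 RPKM and to the first place when the shorter length is used.

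The design asks whether the extra chromosome 16 segment goes with a change of other genes, and Ywhab is such a gene, on chromosome 2 (ENSMUSG00000018326, chr2:163994960-164018588, plus strand). Its isoform is known as a regulator of MAPK signalling. In the WT samples, replicates 1 to 5, Ywhab stood at 605, 602, 587, 576 and 598 CPM. In the Dp1Tyb samples it stood at 679, 684, 676, 656 and 647 CPM. Each Dp1Tyb sample lay above each WT sample, with a gap of 42.0 CPM between the highest WT and the lowest Dp1Tyb sample, and the spread within each genotype was narrow.

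Ywhab averaged 594 ± 12.1 CPM (SD, n = 5) in WT and 668 ± 16.0 CPM (SD, n = 5) in Dp1Tyb, which is 12.6% higher in Dp1Tyb. As a log2 fold change this was 0.17 ± 0.034 SE. This is the difference for which the gene was picked, and it is small: 9.8% of all tested genes, at any level, had a larger log2 fold change. Among the 2281 tested genes at 100 CPM or more, the median absolute log2 fold change was 0.060. As a share of the family's summed CPM, Ywhab took 13.9% to 14.1% in the WT samples and 14.2% to 15.6% in the Dp1Tyb samples. The highest share was that of Dp1Tyb replicate 4, where Ywhab stood at 656 CPM, below the Dp1Tyb mean. The family's sum in that library, 4202 CPM, was the lowest of the Dp1Tyb samples.

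Ywhag (ENSMUSG00000051391, chr5:135908409-135934616, minus strand) codes for the gamma isoform, which is abundant in neurons, and it had the highest CPM of the family. Its values in WT were 1077, 1098, 1104, 1079.9 and 1103 CPM. Its values in Dp1Tyb were 1124, 1216, 1164, 1172.5 and 1227 CPM. The groups did not overlap, but the gap between them was only 19.9 CPM, and the Dp1Tyb samples were spread more widely than those of WT.

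Ywhag averaged 1092 ± 12.8 CPM (SD, n = 5) in WT and 1180.5 ± 41.8 CPM (SD, n = 5) in Dp1Tyb, a log2 difference of 0.11 ± 0.039 SE. It did not pass the test over all genes in edgeR (adjusted p = 0.218). In DESeq2, the tool of the study, the log2 fold change was 0.11 as well and the adjusted p was 0.0239, so the call for Ywhag rests on the tool. DESeq2 called 2.14% of the genes to which it gave an adjusted p as higher in Dp1Tyb, against 0.87% in edgeR.

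Ywhaz (ENSMUSG00000022285, chr15:36770770-36796929, minus strand) codes for zeta, the isoform whose structure and client binding are best studied. It stood at 858, 846, 793, 843 and 838 CPM in WT. It stood at 909, 873, 929, 802 and 868 CPM in Dp1Tyb. In Dp1Tyb, 4 samples exceeded every WT sample, and replicate 4 lay among them. The log2 difference between the genotypes was 0.069 ± 0.045 SE (edgeR, adjusted p = 0.511).

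Ywhah (ENSMUSG00000018965, chr5:33018816-33027966, plus strand) codes for eta, an isoform known from neurons. It stood at 847, 817, 790.4, 796 and 813 CPM in WT. It stood at 853, 867, 880.4, 721 and 871 CPM in Dp1Tyb. The picture was that of Ywhaz in a sharper form: 4 Dp1Tyb samples exceeded every WT sample, and replicate 4 lay below all of them. Fitted over all samples, the log2 fold change was 0.045 ± 0.054 SE (edgeR, adjusted p = 0.736).

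Ywhaq (ENSMUSG00000076432, chr12:21390071-21417637, minus strand) codes for theta, also called tau, which was first known from T cells. It stood at 289, 279, 283, 267 and 293 CPM in WT. It stood at 288, 304, 317, 255 and 306 CPM in Dp1Tyb. The groups overlapped, with replicate 4 of Dp1Tyb again the lowest of all 10 samples. The difference on the log2 scale was 0.057 ± 0.053 SE (edgeR, adjusted p = 0.650). The start of the gene overlaps Gm4419, an antisense gene on the plus strand with a mean of 5.42 CPM, and since the strand setting of the counting is not given, reads of the overlap cannot be told apart.

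Ywhae (ENSMUSG00000020849, chr11:75732869-75765845, plus strand) codes for epsilon, the member most distant from the others in sequence and a partner of Ndel1 in neuronal migration. It stood at 624, 619.7, 614, 592 and 645 CPM in WT. It stood at 645, 651, 659, 596 and 632 CPM in Dp1Tyb. The groups overlapped, with 3 Dp1Tyb samples above the highest WT sample and replicate 4 near the lowest. The fitted log2 fold change was 0.041 ± 0.040 SE (edgeR, adjusted p = 0.663). Gm26836, which lies inside Ywhae on the other strand, had a mean of only 0.611 CPM. Sfn did not differ either, at 1.71 ± 0.374 CPM (SD, n = 5) for WT and 1.73 ± 0.461 CPM (SD, n = 5) for Dp1Tyb (edgeR, adjusted p = 0.999).

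**Figure D2:**
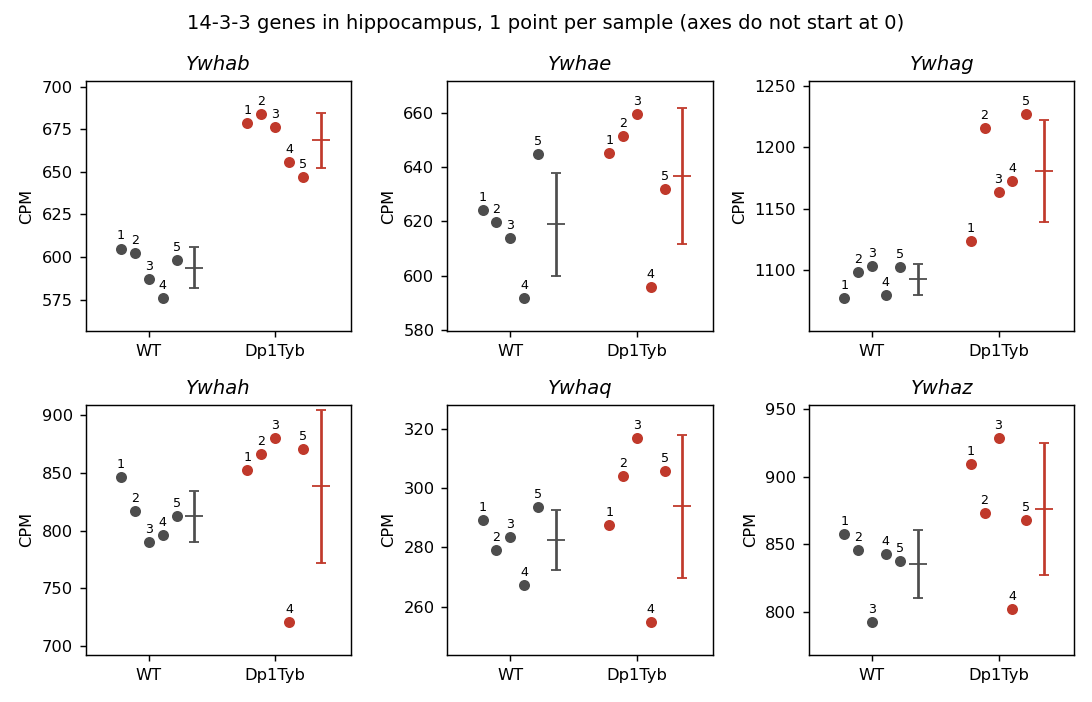
CPM of each 14-3-3 gene by genotype, 1 point per sample with its replicate number, beside the mean and SD (bar) of each group of 5; each panel has its own axis, which does not start at 0. The genotypes do not overlap in Ywhab and Ywhag, and Dp1Tyb replicate 4 is the lowest Dp1Tyb sample in Ywhae, Ywhah, Ywhaq and Ywhaz.

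Of the 5 members other than Ywhab, 0 were called in edgeR at an adjusted p under 0.05, where 1.11% of all tested genes were called, and 1 (Ywhag) had an unadjusted p under 0.05, as had 14.4% of all tested genes. Ywhab itself was below the adjusted threshold, as its choice made likely, and nothing is read from that. Besides Ywhab, only Ywhag of the 6 members had each Dp1Tyb sample above each WT sample, which was so for 2.56% of tested genes and for 7.06% of the 2281 tested genes at 100 CPM or more. The log2 fold change was above 0 in all 6 (Ywhab included), as it was in 48.7% of all tested genes and in 63.0% of those at 100 CPM or more. The median of the 6 was 0.063 (Ywhab included), while the median over all tested genes was −0.0041 and over those at 100 CPM or more it was 0.028. Intervals of 2 SE on either side included 0 for Ywhae (−0.038 to 0.12), Ywhah (−0.063 to 0.15), Ywhaq (−0.049 to 0.16) and Ywhaz (−0.022 to 0.16), and each of these intervals also included the value of Ywhag.

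Summed over the family, the CPM came to 4235 ± 68.3 in WT and 4494 ± 170.3 in Dp1Tyb (SD, n = 5), a ratio of 1.06. The sums of 4 Dp1Tyb samples, from 4497 to 4626 CPM, lay above those of WT, from 4153 to 4299.6 CPM, and Dp1Tyb replicate 4 lay among the WT samples at 4202 CPM. Without Ywhab the sums were 3641 ± 57.2 CPM and 3826 ± 163 CPM, a ratio of 1.05. All of these sums are descriptions with no test.

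Dp1Tyb replicate 4 stood apart from its group in some members and not in others. Against the mean of the other 4 Dp1Tyb samples it was lower by 16.9% in Ywhah, by 16.0% in Ywhaq, by 10.4% in Ywhaz and by 7.9% in Ywhae, but by only 2.3% in Ywhab and 0.85% in Ywhag. The same library had one of the lowest sums of choroid plexus markers (45.4 CPM) and the lowest sums of oligodendrocyte markers (4084 CPM, against 4916 to 5558 CPM in the other Dp1Tyb samples) and of endothelial markers (183 CPM). It also had the highest sums of neuron markers (7143 CPM) and astrocyte markers (1573 CPM) of all samples. Dp1Tyb replicate 1 had the lowest sum of choroid plexus markers (36.7 CPM). Against the other 4 it was higher by 2.2% in Ywhah, 4.8% in Ywhaz and 1.6% in Ywhae, and lower by 2.6% in Ywhaq. The part of the markers in the result was not tested. With Dp1Tyb replicate 4 left out, the log2 fold change was 0.18 ± 0.034 SE for Ywhab, 0.11 ± 0.039 for Ywhag, 0.10 ± 0.038 for Ywhaq, 0.097 ± 0.039 for Ywhaz, 0.092 ± 0.036 for Ywhah and 0.061 ± 0.036 for Ywhae. None of the other 5 members was called without it either (edgeR, adjusted p from 0.268 for Ywhag to 0.504 for Ywhae). Other omissions moved the values down: without Dp1Tyb replicate 3 the log2 fold change was 0.028 for Ywhaq, 0.026 for Ywhah, 0.047 for Ywhaz and 0.028 for Ywhae, and without WT replicate 4 it was 0.025 for Ywhae and 0.038 for Ywhaq. With any single sample left out, Ywhag stayed between 0.098 and 0.13 and Ywhab between 0.16 and 0.18.

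**Figure D3:**
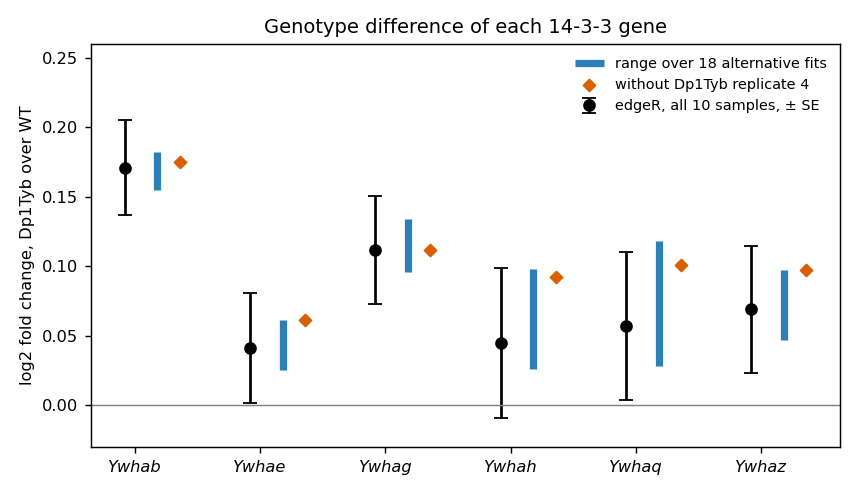
Log2 fold change of Dp1Tyb over WT for each 14-3-3 gene: edgeR value with its SE (black), the range over 18 other fits (blue bar) and the value without Dp1Tyb replicate 4 (orange). Ywhab, which was picked for this difference, lies at 0.17, and Ywhah and Ywhaq move most when that sample is left out.

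The members also varied together to different degrees within genotypes. After the mean of each genotype was removed from log2 CPM, Pearson's r over the 10 samples was 0.90 between Ywhah and Ywhaq, 0.88 between Ywhae and Ywhaq, and 0.84 between Ywhah and Ywhaz. With Ywhab it was highest for Ywhae, at 0.72, and between 0.42 and 0.52 for Ywhah, Ywhaq and Ywhaz. Ywhag varied apart from the others, with r between −0.36 (Ywhaz) and 0.30 (Ywhaq) and −0.27 with Ywhab. These are descriptions over 10 libraries that share the scaling of their sizes, and Dp1Tyb replicate 4 is the lowest point in 4 of the genes.

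Among 10255 other genes with a mean of at least 10 CPM, those whose log2 CPM was most like that of Ywhab over all 10 samples were Ifngr2 (r = 0.98), Cryzl1 (0.98), Hacd3 (0.97), Jam2 (0.97) and S100b (0.97). Ifngr2, Cryzl1 and Jam2 lie in the duplicated region of chromosome 16, so this likeness includes the genotype difference for which Ywhab was picked. With the genotype means removed the list was a different one: Fam219b (r = 0.96), Fbxo27 (0.94), Wrnip1 (0.94), Xab2 (0.92) and Oxsr1 (0.92), none of which was called between the genotypes (edgeR, adjusted p from 0.419 to 0.875). Both lists are the highest of 10255 values of r over only 10 samples, so high values were selected, and r was not tested.

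The study looked at whether genes that lie next to each other change together, and so the tested genes around each member were read out. Ywhab lies between Rims4, a presynaptic gene, and Pabpc1l, a gene of the poly(A)-binding family. Rims4 gave −0.044 ± 0.043 SE on the log2 scale (edgeR, adjusted p = 0.669) and Pabpc1l, at a mean of only 0.502 CPM, one of −0.36 ± 0.24 (adjusted p = 0.525). Among the 5 tested genes on each side of Ywhab, 5 values were above 0 and 5 below, with a median of −0.0025. Pkig, an inhibitor of protein kinase A and the third tested gene before Ywhab, was the one neighbour that was called, and it fell by 0.30 ± 0.058 SE on the log2 scale (adjusted p = 0.0268). It is named here because it was called, after its value had been seen. Over all tested genes, 1.11% were called in edgeR and 48.7% were above 0.

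The nearest tested genes of the other members did not pass the test. They were Crk (log2 fold change 0.056) and Gm26836 (−0.22) for Ywhae, Hspb1 (−0.47) and Ssc4d (0.013) for Ywhag, Depdc5 (0.010) and Slc5a1 (0.51) for Ywhah, Adam17 (−0.025) and Gm4419 (0.069) for Ywhaq, and Pabpc1 (−0.069) and Zfp706 (0.040) for Ywhaz, with adjusted p from 0.192 to 0.990 in edgeR. Of the 10 nearest genes, the number with a log2 fold change above 0 was 3 for Ywhae, 4 each for Ywhag, Ywhah and Ywhaz, and 6 for Ywhaq. Of these 50 genes 0 were called, beside 1.11% of all tested genes.

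**Figure D4:**
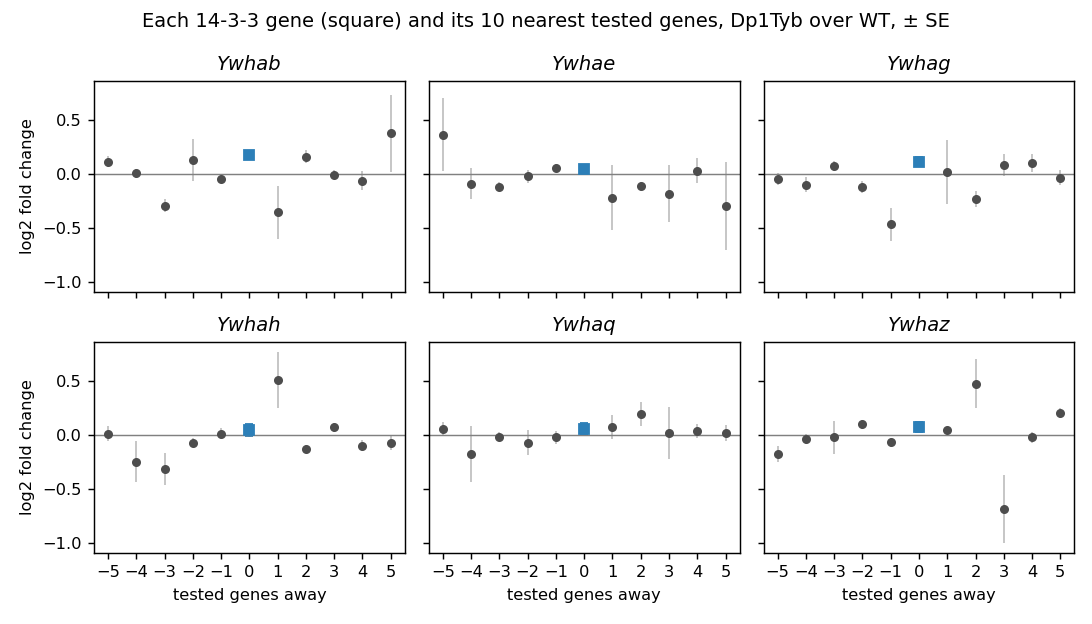
Log2 fold change of Dp1Tyb over WT with its SE for each 14-3-3 gene (blue square) and for the 5 tested genes on each side (grey), placed by their order along the chromosome. The neighbours lie on both sides of 0 around each member, with 5 of 10 above 0 around Ywhab.

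A list of 72 genes for known 14-3-3 clients and for the kinases and phosphatases that act on their docking sites was read from the same fit, and all 72 were tested. It was drawn up from what the genes do, but with earlier results of these data known. Clients in the duplicated region were set apart by their position. Of these, 2 were called, both higher in Dp1Tyb, and both had been listed as clients in the duplicated region, where 68 of 114 tested genes (59.6%) were called. Dyrk1a, a kinase that itself docks 14-3-3, had 78.8 to 85.9 CPM in WT and 120.4 to 131 CPM in Dp1Tyb (log2 fold change 0.60 ± 0.036 SE, edgeR adjusted p = 7.47e-07). Tiam1, an activator of the small GTPase Rac, had 139 to 154 CPM in WT and 191 to 210.5 CPM in Dp1Tyb (0.44 ± 0.039 SE, adjusted p = 2.42e-05). Of the 70 partners outside that region, 0 were called in edgeR, where 1.11% of all tested genes were called. At an unadjusted p under 0.05 in edgeR there were 13 of these partners, 4 higher and 9 lower, beside 14.4% of all tested genes. The log2 fold changes of the 70 were above 0 in 31 and below 0 in 39, with a median of −0.021.

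By role, the values are given as counts on each side of 0. Of all tested genes 48.7% were above 0, and of those at 100 CPM or more 63.0% were. The partner genes lie on both sides of that level. Differences between the roles were not tested, and none of the genes in these roles was called in edgeR. Among 13 transcription regulators that 14-3-3 can keep in the cytoplasm, 10 values were below 0, with a median of −0.12. Foxo3, a factor restrained by insulin signalling, stood at −0.13 ± 0.042 SE (adjusted p = 0.175) and Crtc1, a CREB coactivator of neurons, −0.085 ± 0.045 (adjusted p = 0.410). Among 8 clients of insulin and mTOR signalling 7 were below 0, with −0.069 for Tsc2, an inhibitor of mTOR (adjusted p = 0.589), and −0.25 for Akt1s1, which binds mTOR (adjusted p = 0.328). Among 14 clients of neurons and the cytoskeleton 11 values were above 0, with a median of 0.062. Mapt, which codes for the protein tau, had 507 to 530.4 CPM in WT and 538 to 558 CPM in Dp1Tyb (0.078 ± 0.032 SE, adjusted p = 0.294). Those groups did not overlap. Nor did those of Ctnnb1 in the same role, with 454 to 489 CPM in WT and 491 to 504 CPM in Dp1Tyb. It is named after its values had been seen. Each Dp1Tyb sample lay above each WT sample in 7.06% of tested genes at 100 CPM or more. Rims1, an active zone scaffold, stood at 0.11 ± 0.038 SE (adjusted p = 0.207).

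Among the clients of MAPK signalling, Braf, a kinase at the head of that pathway, stood at 0.043 ± 0.043 SE on the log2 scale (edgeR, adjusted p = 0.676). Both clients of the cell death group, Bad and Map3k5, were below 0, and Map3k5, a stress kinase, stood at −0.12 ± 0.056 (adjusted p = 0.376). Of the 5 cell cycle clients 3 were below 0, with −0.13 ± 0.061 for the inhibitor Cdkn1b (adjusted p = 0.356). The 21 kinases divided into 10 above and 11 below 0. Camk2a, a major kinase of excitatory synapses, stood at −0.019 ± 0.061 (adjusted p = 0.915), and Mark2, a polarity kinase, at −0.14 ± 0.040 (adjusted p = 0.136). Of the 3 phosphatases, Ppp3ca, the catalytic subunit of calcineurin, had 0.0040 ± 0.055 (adjusted p = 0.984) and Ppp2ca, that of phosphatase 2A, had 0.074 ± 0.036 (adjusted p = 0.367).

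**Figure D5:**
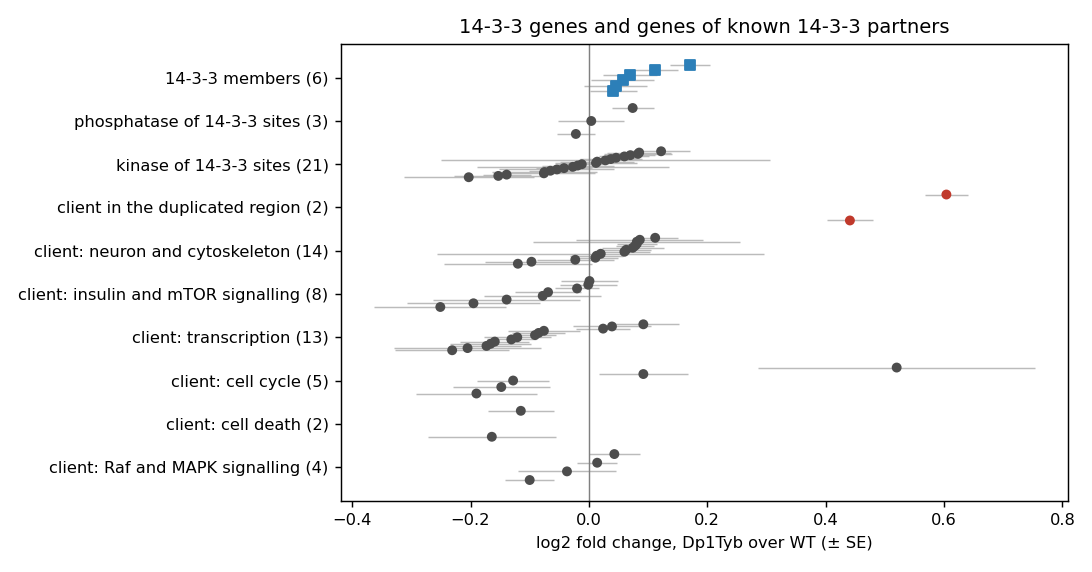
Log2 fold change of Dp1Tyb over WT with its SE for the 6 members (blue squares) and the 72 partner genes by role (number in brackets; red, adjusted p under 0.05 in edgeR). Dyrk1a and Tiam1, the clients in the duplicated region, lie at 0.60 and 0.44, and 10 of 13 transcription clients lie below 0.

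In tissue of mixed cells, more cells of a type and more RNA per cell cannot be told apart, and 14-3-3 genes are expressed in many cell types. Marker lists therefore stand beside the values of the members. The counts of markers called are to be read beside the 1.11% of all tested genes called in edgeR. The 8 general neuron markers summed to 6115 to 6758 CPM in WT and 6736 to 7143 CPM in Dp1Tyb, with 1 of 8 called (Stmn2, log2 fold change 0.21 ± 0.043 SE, edgeR adjusted p = 0.0307). The 6 astrocyte markers summed to 1338 to 1479 CPM in WT and 1505 to 1573 CPM in Dp1Tyb, with no overlap of the sums and 2 of 6 called. These were Gfap (0.26 ± 0.047 SE, adjusted p = 0.0167) and S100b (0.24 ± 0.045 SE, adjusted p = 0.0192). S100b was among the genes most like Ywhab only before the genotype means were removed. That likeness includes the genotype difference for which Ywhab was picked. Of the 6 astrocyte markers 4 were above 0, while Aldh1l1 (−0.010) and Gja1 (−0.080) were below it and not called.

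The mean sums of Dp1Tyb over WT stood at a ratio of 1.07 for neuron and 1.10 for astrocyte markers, beside 1.13 for Ywhab and 1.08 for Ywhag. The ratio was 0.983 for the hippocampal neuron list, 1.03 for oligodendrocyte, 0.926 for microglia, 0.921 for endothelial, 0.505 for choroid plexus and 0.741 for blood markers, with 0 genes of these 6 lists called in edgeR. No marker was at 0 counts in any sample. The part of the cell makeup in the values of Ywhab and Ywhag was not tested. With the 3 libraries lowest in choroid plexus markers left out, the log2 fold change was 0.17 for Ywhab, 0.13 for Ywhag, 0.12 for Ywhaq, 0.098 for Ywhah, 0.089 for Ywhaz and 0.059 for Ywhae. None of the 6 was then below an adjusted p of 0.05 in edgeR, and the values of Ywhaq and Ywhah were over 1.5 times those with all samples.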

How the data were processed

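Whole hippocampi of 5 WT and 5 Dp1Tyb mice were sequenced as stranded mRNA libraries with paired 75-base reads. The authors trimmed the reads (Trim Galore), mapped them to GRCm38 (TopHat2 2.0.12), discarded reads with several alignments and deposited raw counts per gene from HTSeq; the strand setting and annotation release were not given in the sources used here. A deposited table of normalized values and one of the authors' DESeq2 comparison (means, fold changes, errors, p-values) were not used. Positions and lengths came from GENCODE M21, which matched 42548 of 43629 genes.

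Counts were tested with edgeR 4.0.16 (R 4.3.3): filterByExpr, TMM, quasi-likelihood F-test on genotype, Benjamini-Hochberg adjustment over 17237 genes, called at an adjusted p under 0.05. SE is the error that gives the test's statistic. The scripts were tested on simulated data. Other settings were DESeq2 1.42.0, limma-voom (limma 3.58.1), other scalings, no filter, each sample left out, and a replicate block. No libraries were alike within sampling noise (over 20 pairs within genotypes, chi-square per degree of freedom was at least 4.89). Nothing in the labels gives a batch.

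The members, the partner and marker lists and the tests were chosen with earlier results of these data known. Named were the members and Sfn; of each partner role the gene of highest CPM, that of smallest p and any called; the nearest tested gene on each side of a member; the 5 genes most like Ywhab; and annotated copies. For 1 partner role, the gene of smallest p is not reported here.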

Additional observations from a re-analysis of the deposited data

Results flagged for a closer look

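In a search for single samples that lie far from the other 4 of their genotype (Dixon's test at its 95% critical value), 4 of 44 groups of values stood out, where chance alone gives about 1 in 20. Ywhah in Dp1Tyb replicate 4 stood at 721 CPM against 853 to 880.4 CPM in the others, and its share of the family's CPM in the same library was 17.2% against 18.9% to 19.1%. The endothelial markers of that library summed to 183 CPM, against 192 to 195 CPM. The microglia markers summed to 197 CPM in Dp1Tyb replicate 3, against 241 to 257 CPM in the other Dp1Tyb samples.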

How the results depend on the processing

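The log2 fold change of Ywhab lay between 0.155 and 0.182 over 18 other settings, and those of the other members were above 0 in all 18, so direction did not change. The number of members called repeats the choice of Ywhab and supports nothing about it. It was 1 (Ywhab) over all samples, 2 with DESeq2 (Ywhab and Ywhag, whose log2 fold change there was 0.109), 0 with no filter on low counts, 0 with total counts and no scaling factor, 0 without the 3 libraries lowest in choroid plexus markers (chosen after seeing the data), and 0 to 1 with single samples left out. Ywhab was not called without WT replicates 1, 2, 3, 4 or 5 or Dp1Tyb replicates 1, 2 or 3. The partners called were 2 in all settings but that without Dp1Tyb replicate 1, which added Hdac7, lower in Dp1Tyb (log2 fold change −0.24, adjusted p = 0.0201 in edgeR, against −0.17 and 0.293 with all samples; leave-one-out range 2 to 3). With replicate number as a block, 1 member and 2 partners were called, and the log2 fold change of Ywhab was 0.17. The correlation of deviations was 0.277, 0.0, 0.259, −0.06 and 0.343 for numbers 1 to 5. These 5 values are too few to decide whether the numbers pair the samples. Over all genes, 191 were called, against 506 with DESeq2, 315 with the block, 108 without the 3 choroid-poor libraries and 105 to 218 with single samples left out.

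The order of levels moved with the gene length. Ywhae over Ywhah became −0.339 (log2 ratio) per longest transcript and −0.645 per longest coding transcript (chosen after seeing the data), and Ywhaz over Ywhag became −0.311 under each. In WT samples alone, the ratios were 0.137 for Ywhae over Ywhah, 0.111 for Ywhah over Ywhaz, 0.178 for Ywhag over Ywhab and 0.928 for Ywhab over Ywhaq; in Dp1Tyb alone they were 0.136, 0.085, 0.119 and 1.045, and −0.014 for Ywhaz over Ywhag. An exact test over 5 samples cannot go below p = 0.0625, so the lost calls are set by fewer samples. Leaving out single samples gave 0.124 to 0.145, 0.092 to 0.109, −0.003 to 0.024, 0.14 to 0.162 and 0.961 to 0.998 for the 5 pairs in the order of the report. The cause of the other lost calls was not tested.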
